A study of Homo sapiens with 6 samples.

Results

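The 10 genes described here encode transcriptional repressors and inhibitors of the helix-loop-helix class: HES1, HES4 and HES6 of the HES family, HEY1, HEY2 and HEYL of the HEY family, and ID1, ID2, ID3 and ID4 of the ID family. They were taken by symbol from the 62696 genes counted in each library, and all 10 passed the filter on low counts that left 17307 genes for testing. The libraries came from DMS53, an established human small cell lung cancer (SCLC) cell line. In 3 control libraries the cells had been transduced with an empty lentiviral vector, and in 3 OC2-OE libraries with a lentiviral vector for OC2 (ONECUT2, a homeodomain transcription factor). Both groups were selected with puromycin, and the introduced gene is constitutively expressed, so the vector and the selection are shared and the design holds 1 parental line. The study describes the replicates as independent experiments, while the labels do not say whether they came from separate transductions or cultures, so p-values measure the spread between these libraries. In bulk RNA, fewer cells that express a gene and less RNA per cell cannot be told apart.

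HES and HEY proteins bind DNA as dimers and repress transcription, HES proteins typically by recruiting Groucho corepressors, and several of them are classical targets of Notch, whose cleaved receptor joins the DNA-binding protein RBPJ in the nucleus. HES1 is known for repressing proneural genes in neural and endocrine progenitors, and Notch signalling opposes the neuroendocrine state in SCLC. HES6 is an unusual member of its family that promotes neuronal differentiation and can hinder HES1. ID proteins lack a DNA-binding region and sequester E proteins, the partners of tissue-specific activators. ID genes are typical targets of bone morphogenetic protein (BMP) signalling through SMAD proteins.

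The libraries held between 16533284 and 19099337 counts on genes. ONECUT2 rose from 24.6 ± 0.332 to 3944 ± 70.3 CPM (counts scaled to the library size; SD, n = 3 in each group), which fits the labels. Of the markers fixed to check the cell type, all 7 neuroendocrine genes were expressed, with a summed level of 2595 to 2607 CPM in control and 2143 to 2164 CPM in OC2-OE libraries. UCHL1 made up the largest part of this sum and rose from 1077 to 1430 CPM, CHGA rose as well (log2 fold change 1.06), and the other 5 fell, with DDC at -2.52, NCAM1 going from 164 to 41.2 CPM, INSM1 at -1.93, SYP at -0.44 and CHGB at -0.14. The summed fibroblast markers moved from 21.2 to 23.9 CPM in control to 28.1 to 32.1 CPM in OC2-OE, with 3 of 6 genes tested. COL1A1, the most abundant, rose (log2 fold change 0.37), and PDGFRB rose from 8 to 49 summed counts. COL1A2 went from 27 to 65 summed counts and missed an adjusted p of 0.001 in edgeR's test. COL3A1, DCN and LUM were not tested, and LUM went from 6 to 0 summed counts. The endothelial markers moved from 726 summed counts in control to 239 in OC2-OE, or 4.17 to 4.73 CPM there, with 3 of 4 genes tested. KDR, the most abundant of them in control, went from 548 to 85 summed counts, and CDH5 from 52 to 3. PECAM1 went from 125 to 134 summed counts, and VWF, which was not tested, from 1 to 17. The leukocyte markers moved from 0.478 to 0.749 CPM in control to 2.19 to 2.74 CPM in OC2-OE, with 1 of 5 genes tested (LYZ, higher, from 21 to 122 summed counts), PTPRC at 0 counts in control and CD3E at 0 counts in every library. The part of these shifts in the results below was not tested.

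Of the 10 genes, 4 fell, 2 rose and 4 did not pass an adjusted p of 0.001 in edgeR's quasi-likelihood test. HES1, HEY2 and HES6 fell most, to between 0.313 and 0.366 of their control level, ID2 fell less, HEYL rose 2.55-fold and ID1 rose 1.26-fold. Across all tested genes 56.5% passed that test, 27.8% as higher and 28.7% as lower, so 6 of 10 is near the background. The median log2 fold change of the 10 genes was -0.15, against 0.01 over all tested genes. The CPM values of the groups did not overlap for 6 of the 10, against 73.2% of all tested genes.

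**Figure D1:**
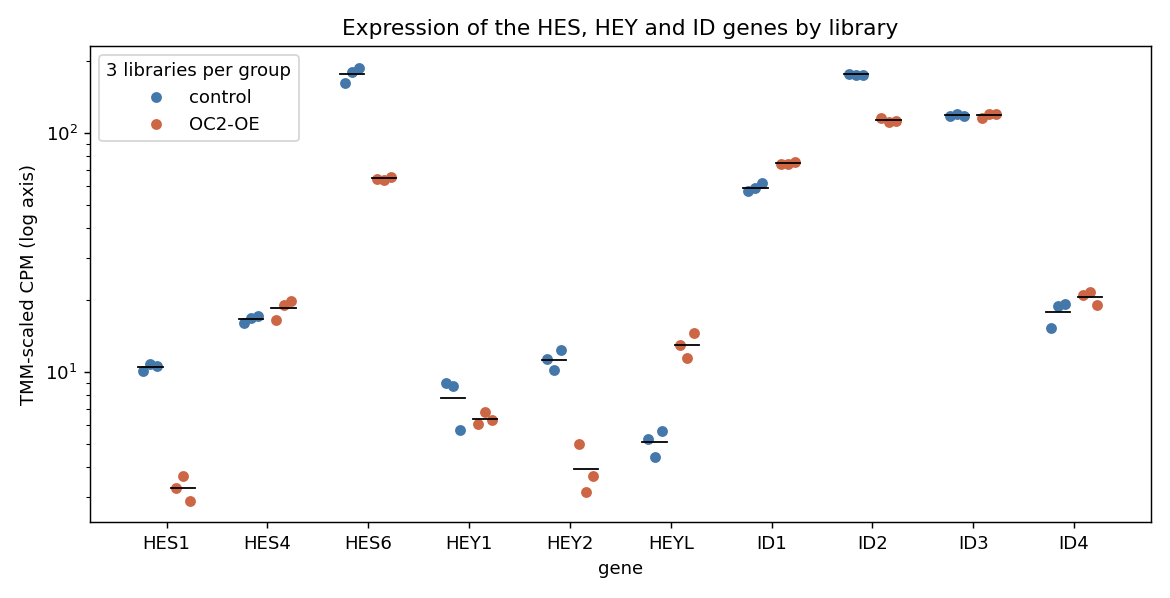
Expression of each of the 10 genes in the 6 libraries, as CPM scaled by TMM factors on a log axis, with control in blue and OC2-OE in orange and a black bar at each group mean. HES1, HES6, HEY2 and ID2 lie lower in every OC2-OE library than in any control library, HEYL and ID1 lie higher, and the points of HES4, HEY1, ID3 and ID4 overlap.

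Within the HES family, HES1 and HES6 fell and HES4 did not pass the test. HES1 (ENSG00000114315.4; GRCh38 chr3:194136148-194138732, plus strand), the classical Notch-induced repressor, had 190, 182 and 172 counts in control libraries 1 to 3 and 63, 64 and 53 counts in OC2-OE libraries 1 to 3. These correspond to 10.2, 10.9 and 10.6 CPM in control and 3.29, 3.69 and 2.91 CPM in OC2-OE. All OC2-OE libraries lay well below all control libraries, and the mean was 3.20-fold lower. The log2 fold change of HES1 was -1.68 ± 0.13 (SE, adjusted p = 3.35e-23 in edgeR's test), and 92.2% of tested genes had a smaller absolute change.

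HES6 (ENSG00000144485.11; chr2:238238267-238240662, minus strand) was the most abundant HES gene. It had 3024, 3013 and 3053 counts in control and 1233, 1104 and 1198 counts in OC2-OE. On the CPM scale these were 162, 180 and 188 in control against 64.3, 63.7 and 65.8 in OC2-OE. The 3 OC2-OE libraries were nearly alike, the control libraries were more spread, and the groups did not overlap. HES6 fell by 1.45 ± 0.039 on the log2 scale (SE, adjusted p = 3.32e-42 in edgeR's test), or 2.73-fold. Thus HES1 and its family antagonist fell together: the ratio of their levels per kilobase of exon, HES6 over HES1, was 17.6 ± 0.981 in control and 20.9 ± 2.83 in OC2-OE (SD, n = 3), and the 2 groups overlapped.

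HES4 (ENSG00000188290.11; chr1:998962-1000172, minus strand), a Notch-induced relative of HES1 with no counterpart in the mouse genome, had 299, 282 and 279 counts in control and 318, 331 and 363 counts in OC2-OE. In CPM its mean was 16.7 ± 0.598 in control and 18.5 ± 1.73 in OC2-OE (SD, n = 3). On this scale OC2-OE library 1, at 16.6, fell inside the control range, and the other two lay above it. The log2 fold change of HES4 was 0.15, with a 95% interval from -0.0031 to 0.31 and an adjusted p of 0.0743 in edgeR's test, so a rise of up to that size was not distinguished from no change.

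The HEY genes moved in opposite directions. HEY2 (ENSG00000135547.9; chr6:125747664-125761269, plus strand), a Notch effector known from heart and vessel development, had 212, 171 and 201 counts in control and 96, 55 and 67 counts in OC2-OE. Its levels were 11.3, 10.2 and 12.4 CPM in control and 5.01, 3.17 and 3.68 CPM in OC2-OE. The groups were clearly apart although OC2-OE library 1 was higher than the other two. HEY2 fell by 1.50 ± 0.13 on the log2 scale (SE, adjusted p = 1.12e-20 in edgeR's test), or 2.86-fold.

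HEYL (ENSG00000163909.8; chr1:39623435-39639643, minus strand), the third family member and a Notch target in smooth muscle, rose. It had 98, 74 and 92 counts in control and 248, 198 and 267 counts in OC2-OE. In CPM these were 5.25, 4.42 and 5.66 against 12.9, 11.4 and 14.7. Every OC2-OE library exceeded every control library. The log2 fold change of HEYL was 1.35 ± 0.11 (SE, adjusted p = 9.38e-21 in edgeR's test).

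HEY1 (ENSG00000164683.19), a Notch target with roles in vessels and bone, moved with the choice of control libraries. It had 168, 147 and 93 counts in control and 117, 118 and 115 counts in OC2-OE. As CPM, the first 2 control libraries held 8.99 and 8.78, control library 3 held 5.72, and the OC2-OE libraries held 6.11, 6.81 and 6.31. Control library 3 was thus the lowest of all 6, and the groups overlapped because of it. HEY1 had a log2 fold change of -0.30 with a 95% interval from -0.55 to -0.05, and its adjusted p of 0.028 in edgeR's test missed the threshold. Without control library 3 the log2 fold change was -0.48 and passed it (adjusted p = 0.000669 in edgeR's test), whereas without control library 1 it was -0.19 (adjusted p = 0.236) and without control library 2 it was -0.22 (adjusted p = 0.172).

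**Figure D2:**
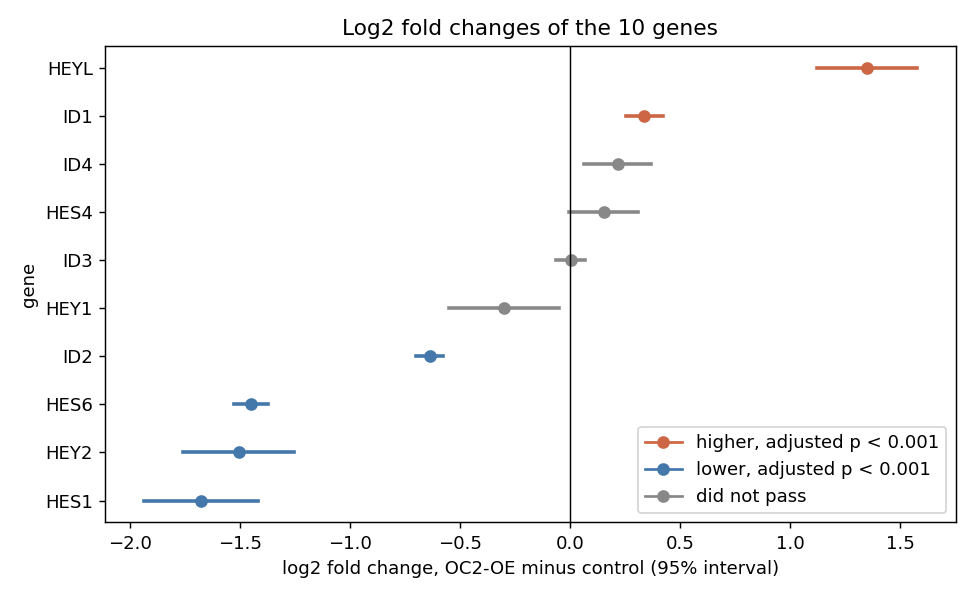
Log2 fold change of each gene between the 3 OC2-OE and 3 control libraries (points), with the 95% interval of edgeR's quasi-likelihood fit (bars) and color by outcome at an adjusted p of 0.001. The intervals of HES1, HEY2 and HES6 overlap one another at the low end, from -1.93 to -1.25, HEYL stands alone at the high end, and those of HES4 and ID3 include 0.

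The region before each transcript start was searched for short motifs. Sequences of the 250 bases before the RefSeq transcript start (GRCh38.p14) were at hand for 9 of the 10 genes, all but HEY1. The letters TGGGAA, the core bound by RBPJ, were searched on both strands and occurred in 20.8% of the 35116 promoters in the table. HES1 held 2 matches on the gene strand, at 84 to 79 and 70 to 65 bases before the start. HEYL held 1 match on each strand, HEY2 held 1 on the opposite strand, at 213 to 208 bases before the start, and HES4 held 1 on the gene strand, at 76 to 71 bases. No match was found in the windows of HES6, ID1, ID2, ID3 or ID4, which says only that these letters are not in those windows. The windows of HES6 (chr2:238240039-238240288) and ID2 (chr2:8681806-8682055) lay inside the spans of the counted genes. That of ID1 (chr20:31605039-31605288) reached just past the start of the counted gene. The full windows of the 2 genes that fell and the 1 that rose are given 5′ to 3′ on the gene strand, with each match in capitals (a match on the opposite strand reads TTCCCA), at chr3:194135898-194136147 for HES1, chr6:125749382-125749631 for HEY2 (inside the counted gene's span but in none of its exons) and chr1:39639644-39639893 for HEYL. For HES4, which did not pass the test, the 30 bases around its match, at chr1:1000156-1000185 on the minus strand and partly inside its first exon in the counted annotation, are given for comparison with HES1.
HES1: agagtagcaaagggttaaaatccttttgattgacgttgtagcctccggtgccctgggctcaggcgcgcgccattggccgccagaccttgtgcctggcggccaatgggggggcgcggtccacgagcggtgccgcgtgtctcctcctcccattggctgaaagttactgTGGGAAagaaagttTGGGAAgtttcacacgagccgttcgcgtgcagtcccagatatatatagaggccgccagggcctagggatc
HEY2: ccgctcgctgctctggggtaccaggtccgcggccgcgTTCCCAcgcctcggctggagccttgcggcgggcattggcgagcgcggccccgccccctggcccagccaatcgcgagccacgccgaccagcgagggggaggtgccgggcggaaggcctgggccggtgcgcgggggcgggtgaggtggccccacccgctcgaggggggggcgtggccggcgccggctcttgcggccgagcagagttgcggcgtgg
HEYL: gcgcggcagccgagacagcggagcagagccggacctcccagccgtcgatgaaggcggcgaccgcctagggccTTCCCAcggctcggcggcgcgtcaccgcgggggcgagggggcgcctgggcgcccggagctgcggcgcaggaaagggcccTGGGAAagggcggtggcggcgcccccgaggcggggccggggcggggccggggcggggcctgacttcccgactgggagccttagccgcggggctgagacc
HES4: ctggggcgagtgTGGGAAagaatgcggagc
The same capitals thus occurred before genes that fell, before one that rose and before one that did not pass, and a match is a description of the sequence, not a site.

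Further motifs were rarer in these windows. The letters CACNAG (N-box, bound by HES proteins; N is any base), found in 32.0% of all promoters on either strand, occurred 3 times before HES1 and 1 time before ID1. The letters ATCAAT (a core bound by ONECUT factors), found in 5.58% of promoters, and CACGTG (an E-box bound by HEY proteins), found in 6.34%, had no match before any of the 9 genes. With 9 windows, these counts are descriptions only.

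**Figure D3:**
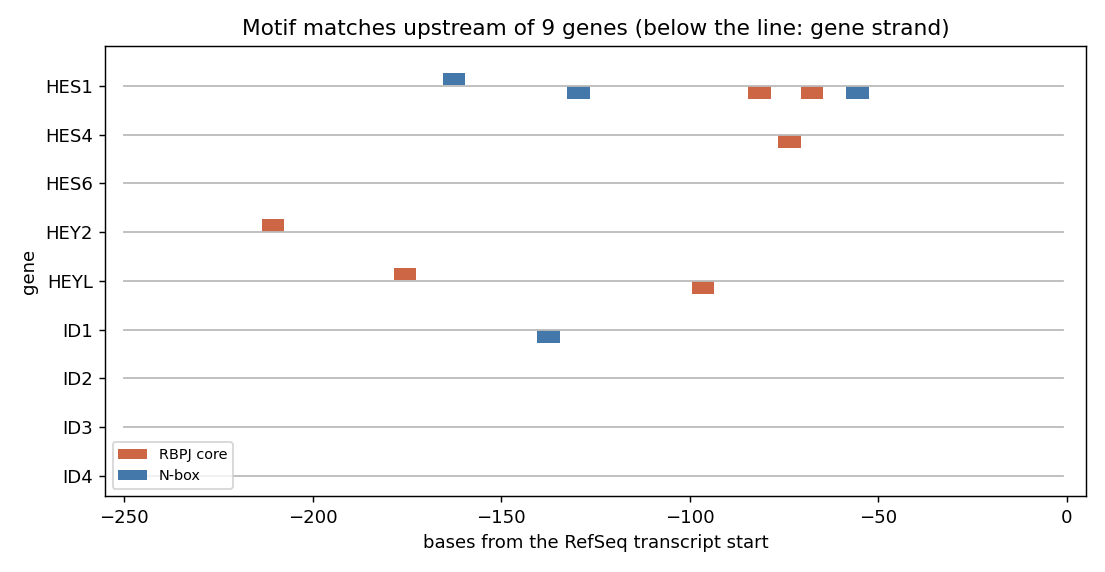
Positions of RBPJ core (orange) and N-box (blue) matches in the 250 bases before the RefSeq start of 9 genes, in bases from the start, with matches on the gene strand drawn below each line and those on the opposite strand above it. HES1 holds 5 of the 10 matches, and HES6, ID2, ID3 and ID4 hold none.

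Within the ID family, ID2 fell, ID1 rose and ID3 and ID4 did not pass the test. ID2 (ENSG00000115738.10; chr2:8678845-8684461, plus strand), which is also known for binding the retinoblastoma protein, had 177, 175 and 176 CPM in control. In OC2-OE it had 115, 111 and 113 CPM. Both groups were tight and did not overlap. ID2 fell by 0.64 ± 0.031 on the log2 scale (SE, adjusted p = 8.55e-39 in edgeR's test), or 1.56-fold.

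ID1 (ENSG00000125968.9; chr20:31605283-31606515, plus strand), the family's best known BMP target, had 57.1, 58.9 and 61.6 CPM in control. Its OC2-OE libraries held 74.3, 74.6 and 75.4 CPM. The rise was small but larger than the spread within either group, with a log2 fold change of 0.34 ± 0.043 (SE, adjusted p = 5.52e-12 in edgeR's test). Of all tested genes, 45.6% had a smaller absolute log2 fold change than ID1.

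ID3 (ENSG00000117318.9; chr1:23557926-23559501, minus strand), often induced together with ID1, had 118, 120 and 117 CPM in control and 115, 121 and 120 CPM in OC2-OE. Its log2 fold change was 0.0029 with a 95% interval from -0.06 to 0.07 (adjusted p = 0.943 in edgeR's test), so the data bound any change of ID3 closely. ID4 (ENSG00000172201.12; chr6:19837370-19842197, plus strand), the member mostly known from neural progenitors, had 15.3, 18.9 and 19.2 CPM in control and 21.1, 21.6 and 19.0 CPM in OC2-OE. Control library 1 was the lowest and the groups overlapped. ID4 did not pass the threshold, with a log2 fold change of 0.22, a 95% interval from 0.06 to 0.37 and an adjusted p of 0.00941 in edgeR's test. Without control library 1 the log2 fold change of ID4 was 0.11 (adjusted p = 0.234 in edgeR's test).

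To compare levels between genes, CPM was divided by the exon length in the files, in kilobases. In control, HES6 was highest at 90.4 ± 6.80 CPM per kilobase (SD, n = 3), followed by ID2 at 79.5 ± 0.333 and ID3 at 79.2 ± 0.956, which did not differ beyond their spread. ID1 came next at 48.0 ± 1.86 and HES4 at 14.9 ± 0.535. HES1 at 5.12 ± 0.172, ID4 at 4.59 ± 0.570 and HEY2 at 4.21 ± 0.398 followed, with ID4 overlapping both of its neighbours in SD, and HEY1 at 1.43 ± 0.334 and HEYL at 1.25 ± 0.154 closed the order and did not differ beyond their spread.

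In OC2-OE the order of levels per kilobase changed. ID3 was highest at 79.4 ± 1.96, ID1 was next at 60.6 ± 0.486, ID2 followed at 51.1 ± 0.968 and HES6 came next at 33.1 ± 0.535. HES4 at 16.6 ± 1.55, ID4 at 5.32 ± 0.353 and HEYL at 3.19 ± 0.396 were separated beyond their spread. HES1 at 1.60 ± 0.191, HEY2 at 1.47 ± 0.353 and HEY1 at 1.17 ± 0.0660 were the lowest and were not separated from the next in order. The length used is that of all exons of a gene joined, and it moves the order of neighbours. With the principal transcript of GENCODE release 29 in its place, chosen after the data were seen, ID3 stood above ID2 in control (94.8 against 86.2 CPM per kilobase) and ID4 above HES1 (7.59 against 6.68). On that scale HEY1 had 3.42 CPM per kilobase in control and 2.80 in OC2-OE, above HEY2 at 1.48 in OC2-OE.

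Summed per family on the same scale, the HES level fell from 110 ± 7.47 to 51.2 ± 1.77 CPM per kilobase (SD, n = 3), and HES6 carried most of it in both groups. The share of HES6 was 81.8% ± 0.648 in control and 64.6% ± 1.86 in OC2-OE, and that of HES4 moved from 13.5% ± 0.443 to 32.3% ± 1.97. The HEY sum moved less, from 6.89 ± 0.351 to 5.83 ± 0.524 CPM per kilobase, while its makeup turned over. HEY2 made up 61.0% ± 3.81 of it in control and 25.1% ± 4.51 in OC2-OE, and HEYL 18.2% ± 1.52 and 54.7% ± 3.71. With principal transcripts the HEY2 share was 46.8% and 18.9% and the HEYL share 15.5% and 45.4%, the same exchange at other values.

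The ID sum was 211 ± 1.95 CPM per kilobase in control and 196 ± 1.32 in OC2-OE, with no overlap. ID1 rose from 22.7% ± 0.705 to 30.9% ± 0.129 of this sum, and ID2 went from 37.6% ± 0.506 to 26.0% ± 0.648. The ratio of ID2 to ID1 was accordingly 1.66 ± 0.0695 in control and 0.843 ± 0.0198 in OC2-OE, so the more abundant of the pair was ID2 in every control library and ID1 in every OC2-OE library.

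**Figure D4:**
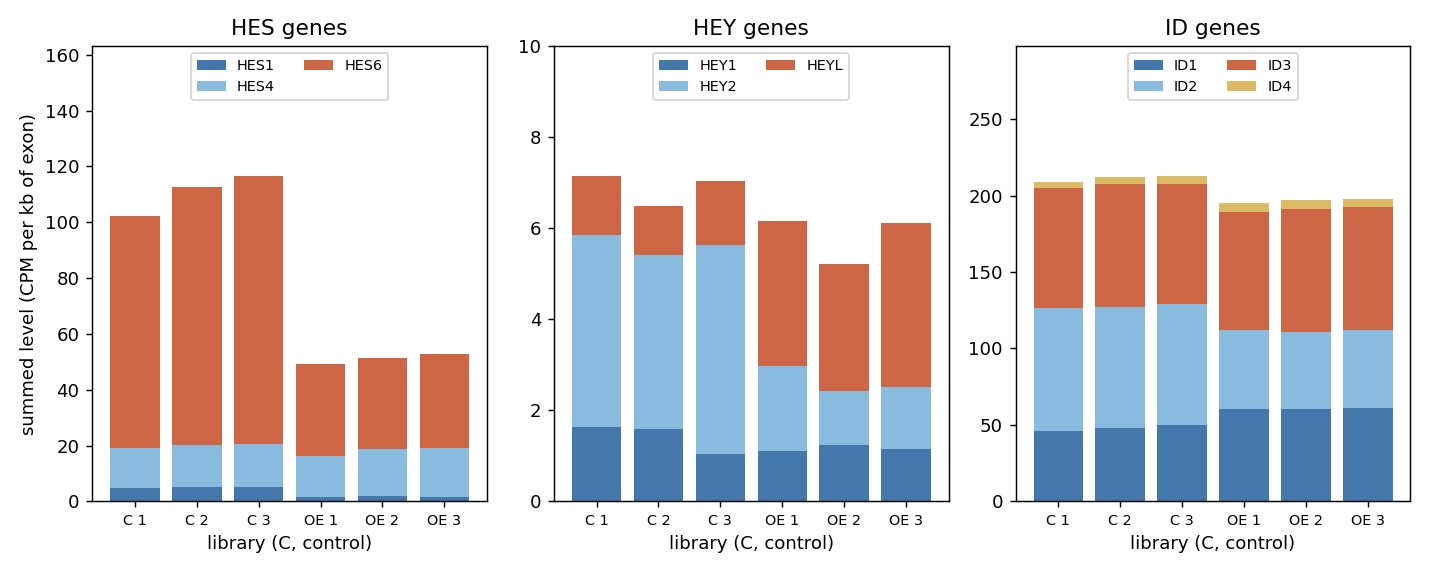
Summed level of the HES, HEY and ID genes in each library, in CPM per kilobase of exon, with the height of each color giving the level of 1 gene (C, control; OE, OC2-OE; each panel has its own axis, from 0). The HES bars drop from between 102 and 117 to between 49.4 and 52.9, the HEY bars keep most of their height while HEYL takes the place of HEY2, and the ID bars differ mainly in the parts of ID1 and ID2.

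The RNA of the binding partners of the ID proteins also shifted. The 3 E proteins, widely expressed partners of tissue-specific activators, were all called, beside 56.5% of all genes: TCF12 fell (log2 fold change -0.53, SE 0.037) and TCF3 and TCF4 rose (0.19, SE 0.044, and 0.51, SE 0.087), although 1 of the rising calls was lost without OC2-OE library 1. Their summed level per kilobase was 21.7 ± 0.488 in control and 19.4 ± 0.694 in OC2-OE. The ID sum over the E protein sum was 9.74 ± 0.292 in control and 10.2 ± 0.402 in OC2-OE, and the groups overlapped. This is a ratio of RNA levels, not of proteins. Its size rests on the exon lengths, with 6.44 and 6.99 on principal transcripts.

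Among the tissue-specific helix-loop-helix factors, a list of mostly activators that also holds known repressors such as BHLHE22 and MSC, 15 of 26 were tested, 8 fell and 1 rose, with a median log2 fold change of -1.50, where 28.7% of all tested genes fell. With at least 10 counts required in every library, 5 falls were left. The largest changes were those of NEUROG3, an endocrine progenitor factor (-3.26, SE 0.155, from 643 to 71 summed counts), BHLHE22, a neuronal repressor (-2.70, SE 0.514, from 45 to 7 summed counts), and NEUROD1, a driver of neuronal and endocrine differentiation (-2.32, SE 0.033, from 287 ± 10.8 to 57.7 ± 0.404 CPM). HAND1, HAND2, OLIG1, ATOH8 and ASCL2 also fell, and NEUROD4 rose; these were named to complete the count.

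Notch receptors and ligands, which act upstream of the HES and HEY genes, were all tested. Among these 9 genes 2 rose and 5 fell, with a median log2 fold change of -0.27. Across all genes 27.8% rose and 28.7% fell, 56.5% together. The receptors NOTCH3 (1.54, SE 0.183) and NOTCH2 (1.51, SE 0.085) rose, and the ligand DLL4 (-1.55, SE 0.042) fell. The ligands DLL3 (-0.69), DLL1 (-0.65), JAG1 (-0.27) and JAG2 (-0.26) fell as well and were added to complete the count. NOTCH1 and NOTCH4 did not pass.

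Of 14 genes for Notch cleavage and its nuclear complex, 7 rose and 3 fell, with a median of 0.21. For comparison, 27.8% of all genes rose and 28.7% fell, 56.5% together. With scaling by library size only 1 fell, and 2 of the rises were of size 1 or more on the log2 scale. MAML2, a coactivator, rose most (2.98, SE 0.484) from a low base of 7 summed counts to 61. It dropped out when at least 10 counts were required in every library, which left 6 rises. APH1B, a subunit of the cleaving enzyme gamma-secretase, rose by 1.04 (SE 0.128), and the coactivator MAML3 had -0.69 (SE 0.068). Of 3 other Notch-induced genes, NRARP, a feedback inhibitor, rose (0.71, SE 0.076), LFNG, which glycosylates Notch, fell (-1.63, SE 0.042), and DTX1 was not tested at 14 and 20 summed counts. Known Notch-induced genes therefore moved both ways, inside and outside the HES and HEY families.

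The remaining HES-type repressors were mostly low. Of 7, 5 were tested, and BHLHE41, a circadian repressor, was the 1 that passed (0.77, SE 0.083), beside 56.5% called over all genes. HES5, a Notch target of neural stem cells named here after its values were seen, had 7 counts in each control library and 2, 4 and 0 counts in the OC2-OE libraries and was not tested.

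The Groucho corepressors, which HES proteins such as HES1 recruit, comprised 6 tested genes, of which 1 rose and 3 fell. Among all genes 27.8% rose and 28.7% fell, 56.5% together. TLE3 had a log2 fold change of -0.90 (SE 0.035), TLE2 of -0.59 (SE 0.137) and TLE5, a short member that lacks the repression domain, of -0.40 (SE 0.027). TLE6 rose from 59 to 125 summed counts (1.00, SE 0.254), a call that was lost in DESeq2's Wald test and without control library 1, control library 2, OC2-OE library 2 or OC2-OE library 3. TLE1 at 0.10 (SE 0.061) and TLE4 at 0.24 (SE 0.076) did not pass. The most abundant of them per kilobase, TLE5, was at 57.5 in control and 43.5 in OC2-OE.

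On the side of the BMP pathway, which acts upstream of the ID genes, inhibitors, receptors and SMADs moved in both directions. Of 10 inhibitors 8 were tested, 5 fell and 1 rose, with a median log2 fold change of -1.04, and 3 of the falls were left when at least 10 counts were required in every library. Over all genes 56.5% were called and 28.7% fell. SMAD6, an inhibitory SMAD, fell (-2.36, SE 0.506) from 45 to 9 summed counts, and GREM1, a secreted BMP antagonist, fell (-1.54, SE 0.335) from 78 to 28. FST, a secreted antagonist of activins, rose (1.84, SE 0.087) from 7.22 ± 0.421 to 25.9 ± 0.951 CPM. SMAD7, CHRD and BAMBI fell as well, by 0.66, 1.42 and 1.42 on the log2 scale, and were added to complete the count.

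Of 12 BMP receptors and SMADs, all tested, 5 rose and 3 fell, with a median of 0.0024. The shares over all genes were 27.8% higher and 28.7% lower, 56.5% together. Without control library 2, 3 rose. ACVRL1, a receptor known from endothelium, rose (2.93, SE 0.542) from 6 to 51 summed counts. It dropped out when at least 10 counts were required in every library, which left 4 rises. BMPR1B had -0.94 (SE 0.101) and the coreceptor ENG -0.88 (SE 0.052). Of 7 BMP ligands 3 were tested and 0 passed in edgeR's test, against 1 at an unadjusted p under 0.05 and 0 in DESeq2's test. That 1 was BMP2, named after its values were seen, at -0.66 (SE 0.190, adjusted p = 0.00122 in edgeR's test).

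**Figure D5:**
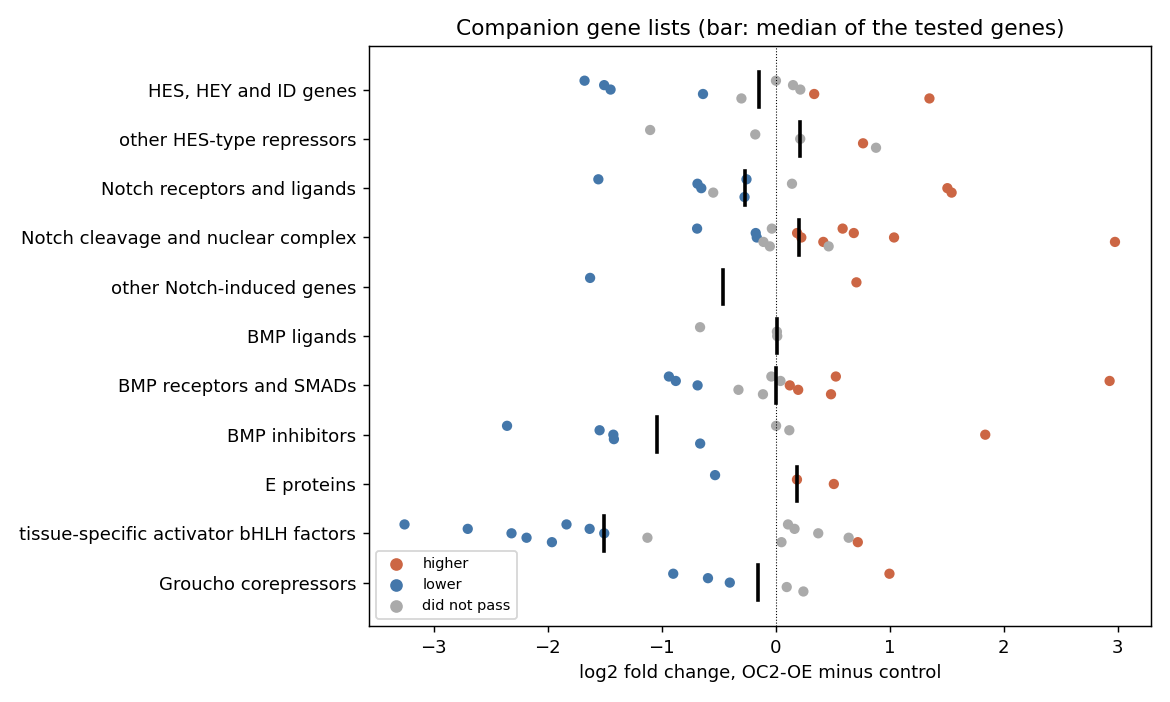
Log2 fold changes of the tested genes of each list between 3 OC2-OE and 3 control libraries, with color by outcome at an adjusted p of 0.001 and a black bar at the median of each list. The tissue-specific factors (the activator list of the plot) have the lowest median (-1.50) and the BMP inhibitors the next (-1.04), while the HES, HEY and ID genes spread over both directions around -0.15.

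Genes that overlap the members or lie next to them did not always move with them. ID2-AS1, on the strand opposite to ID2 and overlapping it, rose from 22.8 to 31.4 CPM (log2 fold change 0.46, SE 0.064) while ID2 fell. Counting used the strand, and how fully this kept reads of overlapping pairs apart was not tested. ENSG00000225057, antisense to HES6, fell with it, from 63 to 10 summed counts (-2.69, SE 0.453), and PER2, a clock gene 3382 bases from HES6, fell less (-0.71, SE 0.058).

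Close to HES4, ISG15, an interferon-induced gene that starts 966 bases away on the opposite strand, rose from 35.4 to 78.2 CPM (1.15, SE 0.062), whereas HES4 between it and ENSG00000272512, which lies 911 bases away on the same strand and fell (-1.29, SE 0.356), did not pass. LINC02037, the nearest tested gene on the higher-coordinate side of HES1 at 108885 bases, fell from 511 to 7 summed counts (-6.20, SE 0.267). NCOA7, 19892 bases from HEY2, rose (0.99, SE 0.054) where HEY2 fell. HM13, 27360 bases from ID1, rose (0.34, SE 0.026), as ID1 did. BCL2L1, on the other side of ID1, fell (-0.19, SE 0.037), and LINC01814, a neighbour of ID2, fell with it (-0.92, SE 0.094). Of the remaining neighbours that passed the threshold, OPA1 beside HES1 (-0.25), ILKAP beside HES6 (-0.22), STMN2 beside HEY1 (-0.91) and PABPC4 beside HEYL (-0.14) fell, and HPCAL4 beside HEYL (0.45), HDDC2 beside HEY2 (0.60) and RNF144B beside ID4 (0.54) rose. Neighbours thus moved both with and against the 10 genes.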

How the data were processed

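RNA-Seq was performed on 6 DMS53 libraries, 3 control and 3 OC2-OE, grouped by their labels. Per the file headers, the authors counted read pairs by strand on the genes of GENCODE release 42 (GRCh38) with featureCounts 1.6.0. The deposited files hold these raw counts, not normalized. The submitters' processing notes also name STAR 2.7.9a. Alignment and counting therefore limit what is seen of genes that overlap on 1 strand.

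Counts were normalized by TMM and tested with edgeR 4.0.16 (R 4.3.3), using filterByExpr, robust quasi-likelihood fits and Benjamini-Hochberg adjustment over 17307 genes. The threshold of 0.001 is that of the study. Levels per length are TMM-scaled CPM divided by kilobases of exon. Of 62696 Ensembl identifiers, 62625 were paired with a symbol. Promoter sequences and starts are from RefSeq (GRCh38.p14).

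The members, the gene lists and the tests were chosen with earlier results of these data known. Named genes were all members and, from each list, up to 3 genes with the largest absolute log2 fold change among those past the threshold (every tested E protein and Groucho gene), with called neighbours of the members. Alternatives comprised DESeq2 1.42.0, other scalings, filters and thresholds, the replicate number as a block and each library left out. Library totals of 16533284 to 19099337 counts limit the precision of low genes.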

Additional observations from a re-analysis of the deposited data

How the results depend on the processing

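Calls of the 10 genes were recomputed under 13 alternatives: DESeq2's size factors or library size only in place of TMM, ONECUT2 left out, DESeq2's Wald test, no filter or at least 10 counts in every library, the replicate number as a block, and each of the 6 libraries left out. HES1, HES6, HEY2, HEYL, ID1 and ID2 kept their direction and call in all 13, with HES1 between -1.76 and -1.59, HES6 between -1.51 and -1.40, HEY2 between -1.71 and -1.37, HEYL between 1.26 and 1.43, ID1 between 0.31 and 0.39 and ID2 between -0.65 and -0.59. HES4, ID3 and ID4 stayed above the threshold in all 13, and HEY1 in 12. HEY1 passed without control library 3 (-0.48, adjusted p = 0.000669 in edgeR's test), with adjusted p between 0.000669 and 0.236 over the 13. The sign of ID3 turned in 4 of the fits that left out a library, which gave -0.0070 to 0.030. With calls limited to log2 fold changes of size 1 or more, 1 of the 10 genes was higher and 3 were lower, since ID1 and ID2 changed by less. At an adjusted p under 0.05, 3 were higher and 5 lower, with ID4 and HEY1 added.

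Replicate numbers were not treated as pairs. Libraries with the same number correlated by at most 0.016 in their deviations from the group means. Noise of low counts enters this value, so it cannot exclude an effect shared by libraries of the same number. With the replicate block, 9642 genes were called against 9776 without it. DESeq2's Wald test called 8699 genes, at least 10 counts in every library 8995, and leaving out a library 8944 to 9340.

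For the companion lists, the same size limit left 1 higher and 0 lower of the BMP receptors and SMADs, 0 higher and 0 lower of the E proteins and of the Groucho corepressors, 2 higher and 0 lower of the Notch cleavage and nuclear genes, 1 lower of the Notch receptors and ligands, and 0 higher of the other HES-type repressors, other Notch-induced genes and tissue-specific helix-loop-helix factors. An adjusted p under 0.05 gave 1 lower BMP ligand, 2 higher Groucho corepressors, 2 higher and 1 lower other HES-type repressors and 2 higher tissue-specific helix-loop-helix factors. At least 10 counts in every library left 3 lower BMP inhibitors and 5 lower tissue-specific helix-loop-helix factors, since fewer genes were tested. DESeq2's Wald test gave 0 higher Groucho corepressors, and library size only gave 2 of these and 1 lower Notch cleavage or nuclear gene. Leaving out 1 library gave 0 to 1 lower BMP ligands (1 without control library 3), 3 to 5 higher BMP receptors and SMADs (3 without control library 2), 1 to 2 higher E proteins (1 without OC2-OE library 1) and 0 to 1 higher Groucho corepressors (0 without control library 1 or 2 or OC2-OE library 2 or 3). These alternatives changed only the processing, the thresholds or the libraries used, and the cause of the changes was not tested.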
